A study of Mus with 21 samples.

Results

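The wounds that received acidic fibroblast growth factor (aFGF, also called FGF1) were compared with the wounds that received basic fibroblast growth factor (bFGF, FGF2), over all the pH values of the gel that carried them. The comparison used 18 of the 21 RNA-seq libraries of the series, 9 with aFGF and 9 with bFGF, and it asked which genes of the wound differed with the growth factor once the gel pH was allowed for. All animals were wild-type C57BL/6 mice, which the study's methods give as females of 8 weeks, each with full-thickness punch wounds, 8 mm wide, on the left and right of the back, and the tissue was skin of the wound on Day 4. The wounds were filled with GelMA, a gelatin hydrogel that is set by light, at pH 6.4, 7.4 or 8.4 and loaded with 1 of the 2 growth factors, with 3 libraries in each of the 6 groups, and 6.4/aFGF, for example, stands for aFGF in a gel of pH 6.4. The 3 control libraries came from wounds with no hydrogel, so they were left out of the tests, and for some genes their levels are given beside those of the gels. No library came from a gel without a growth factor, so a difference between the growth factors could be a rise with one or a fall with the other. The series' design text counts 21 mice, 1 for each library. Which of a mouse's wounds a library came from is not given, and the p-values measure the spread between these libraries.

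Fibroblast growth factors bind receptor tyrosine kinases on the cell surface together with heparan sulphate, and the receptors signal through the ERK kinase cascade, which switches on early transcription factors and its own inhibitors. FGF1 binds every form of the FGF receptors, those of epithelial cells included, while FGF2 mainly binds the forms found on mesenchymal cells. In skin wounds the family is known for its part in the growth of granulation tissue, the formation of vessels and the closure by keratinocytes. At this stage a wound holds keratinocytes at its edge, fibroblasts, endothelial cells, neutrophils and macrophages.

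Libraries held 34362558 to 37817833 counted reads, so that 3 reads, taken as the detection floor of a single library, are worth 0.0793 to 0.0873 CPM (counts per 1000000 counts of the library). Such floors cover counting error only. All 22 markers of keratinocytes, fibroblasts, endothelium, macrophages and neutrophils that were looked up reached at least 33.2 CPM in every one of the 18 libraries. A few libraries stood apart. In 3 of them, some genes of another tissue reached levels that no other hydrogel library did. These were cartilage genes such as Col2a1 in 7.4/aFGF replicate 3 and liver genes such as Alb in 8.4/aFGF replicate 2. In 8.4/bFGF replicate 2 they were ovary genes such as Cyp11a1. The library 7.4/aFGF replicate 1 had the highest levels of T cell and interferon response genes. Skeletal muscle genes, summed, ranged from 1570 to 24700 CPM with aFGF and from 515 to 22200 CPM with bFGF. The control wounds differed among themselves too. Neutrophil genes, summed, had 13620 CPM in control replicate 2, against 1682 and 958.7 CPM in replicates 1 and 3.

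Of 18806 genes in the files, 15696 had enough reads to be tested. A gene was called where its Benjamini-Hochberg adjusted p by edgeR's quasi-likelihood test was under 0.05 and its log2 fold change, aFGF over bFGF, was beyond 0.58. By this rule 589 genes (3.75%) were called, 279 higher with aFGF (1.78%, median log2 fold change 0.89) and 310 lower (1.98%, median −0.81). The 3.75% is the share to set beside the counts of edgeR calls in the gene lists below. Without the condition on fold change, 2030 genes (12.9%) passed, 1128 higher (7.19%) and 902 lower (5.75%). In 106 genes (0.675%) the CPM of the 9 aFGF libraries and of the 9 bFGF libraries did not overlap, with aFGF above in 61 and below in 45, and 45 of the called genes were among them. The second principal component of the log2 levels, 16.4% of the variance, held most of its spread between the growth factors (62.9%), while the first, with 22% of the variance, held 0.149% there. Fits with 12 of the libraries gave other numbers of calls. Without pH 6.4 there were 725 calls, without pH 8.4 there was 1 (Tns4; 2677 genes at an unadjusted p under 0.05) and without pH 7.4 there were 0 (3160 such genes, lowest adjusted p = 0.0516). Aqp3, for example, had a log2 fold change of 1.63 in the fit of 18 libraries, 1.38 without pH 7.4 (edgeR adjusted p = 0.0589) and 1.73 without pH 8.4 (edgeR adjusted p = 0.0603). Leaving out single libraries gave 378 calls (without 8.4/aFGF replicate 2) to 800 (without 6.4/bFGF replicate 3), and 279 of the 589 genes (47.4%) were called in each of these 18 fits.

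**Figure D1:**
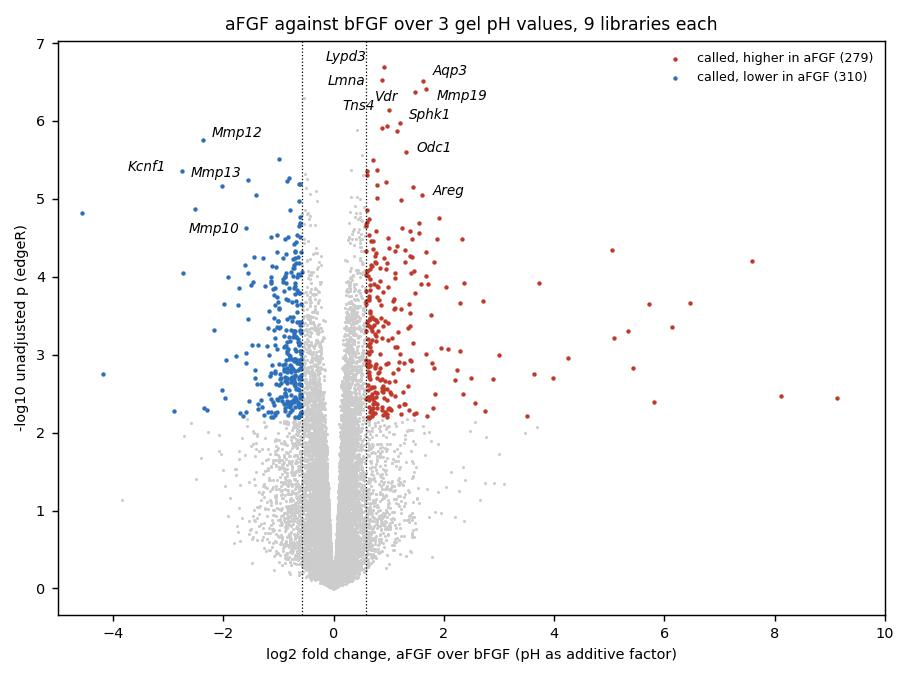
Log2 fold change of aFGF over bFGF (x axis) against the −log10 of the unadjusted p of edgeR's test (y axis), 1 point for each of the 15696 genes, with dotted lines at log2 fold changes of −0.58 and 0.58. Red points are the 279 called higher with aFGF, blue points the 310 called lower, and grey points were not called.

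The 30 called genes of smallest p held 20 that were higher with aFGF and 10 that were lower. In 21 of them the 9 and 9 libraries did not overlap, where 0.675% of all tested genes had no overlap. Choosing genes by p in these same libraries favours a lack of overlap and calls in fits without 1 library, so neither is independent support. Aqp3, the water and glycerol channel of keratinocytes, was 111 to 247 CPM with aFGF (median 152) and 27.2 to 76.9 CPM with bFGF (median 53.2), so that every aFGF library lay above every bFGF library. Its log2 fold change of 1.63 ± 0.199 (SE), 3.09-fold, had an edgeR adjusted p of 0.00133, and the control wounds had 51.8 to 72.4 CPM. Whether tissue with more cells of a type or cells with more of an RNA gives such a difference cannot be told apart in bulk samples, here and below.

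Lypd3, an anchored surface protein of the upper epidermal layers, was also free of overlap, at 95.9 to 142 CPM with aFGF (median 117) against 43.2 to 71.0 CPM with bFGF (median 63.6), a log2 fold change of 0.91 ± 0.108 (edgeR adjusted p = 0.00133). The vitamin D receptor gene Vdr had 33.5 to 85.7 CPM (median 55.6) with aFGF and 14.9 to 26.5 CPM (median 18.7) with bFGF. Its log2 fold change was 1.47 ± 0.185 (edgeR adjusted p = 0.00133), and again no library of one growth factor reached the range of the other. Tns4, a tensin that binds integrin tails, had 43.8 to 66.6 CPM with aFGF and 16.5 to 33.2 CPM with bFGF (log2 1.01 ± 0.131). Grhl3, a transcription factor of barrier formation and wound closure, had 14.9 to 22.8 CPM against 6.88 to 14.1 CPM (log2 0.79 ± 0.123), and these groups did not overlap either. For Itga3, the integrin chain that binds the laminin of the basement membrane, 8 of the 9 aFGF libraries lay above all bFGF libraries, at 44.8 to 75.7 CPM against 25.5 to 46.7 CPM (log2 0.78 ± 0.125, edgeR adjusted p = 0.00363). All 6 genes were called in each of the 18 fits that left out 1 library.

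**Figure D2:**
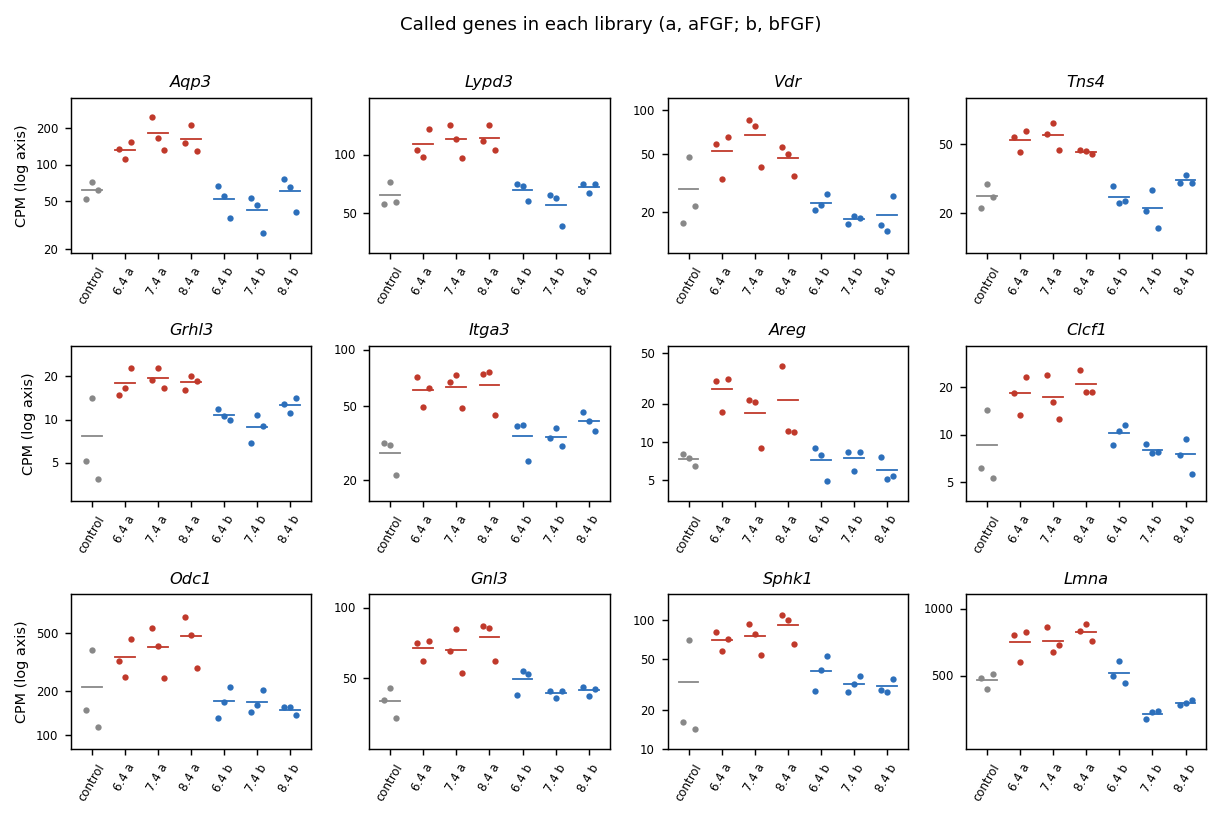
Level of 12 genes in CPM (log axis) by group, with control in grey, aFGF in red and bFGF in blue. Each point is a library and each line the mean of 3 libraries, and for Aqp3, Lypd3, Vdr, Tns4, Grhl3, Areg, Clcf1, Odc1 and Sphk1 all 9 aFGF points lie above all 9 bFGF points.

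Lists of known keratinocyte genes differed in their share of calls. Of 25 genes of wound-edge keratinocytes, 5 rose with aFGF and 1 fell (24%, against 3.75% of all tested genes), with a median log2 fold change of 0.06. Itga3, Itga5 (0.79 ± 0.161), Hbegf, Epgn and Il24 (1.39 ± 0.258) rose and Mmp10 fell. The integrin chain Itga5, the fibronectin receptor, had 307 to 687 CPM with aFGF and 206 to 405 CPM with bFGF, and the cytokine Il24 had 3.10 to 8.66 CPM against 1.51 to 4.02 CPM, each with 7 aFGF libraries above all bFGF libraries. Among 26 barrier and cornification genes only the transglutaminase gene Tgm3 was called (log2 0.75 ± 0.175, 14.8 to 34.9 against 10.6 to 20.4 CPM), and the list's median was 0.12. None of 14 basal keratinocyte genes was called by edgeR or by DESeq2, which called 5.04% of all genes. Only 2 had an unadjusted p under 0.05, Pkp1 (0.45 ± 0.134) and Lama3 (−0.54 ± 0.153), with opposite signs. Both passed edgeR's adjusted p but not the fold change. Summed over the list, basal keratinocyte genes had 3060 to 5590 CPM with aFGF and 2420 to 5480 CPM with bFGF. Of 11 hair follicle genes only Tchh, which codes for trichohyalin of the inner root sheath, was called, at 3.48 to 10.5 CPM with aFGF and 6.80 to 17.7 CPM with bFGF (log2 −1.28 ± 0.239, edgeR adjusted p = 0.00578). The part of the number of keratinocytes in the epidermal genes above was not tested.

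Several genes for ligands of the epidermal growth factor receptor family rose with aFGF. This receptor family is the other main driver of ERK signalling in keratinocytes, and its ligands are shed from the cell surface. Areg, amphiregulin, had 9.02 to 39.3 CPM with aFGF (median 20.5) and 4.95 to 8.95 CPM with bFGF (median 7.64), with the groups just free of overlap and a log2 fold change of 1.61 ± 0.256 (edgeR adjusted p = 0.00358). Ereg, epiregulin, ranged more widely, from 12.1 to 256 CPM (median 42.1) against 4.21 to 36.3 CPM (median 8.97), a log2 fold change of 2.30 ± 0.569 (edgeR adjusted p = 0.0178), and 7 of the 9 aFGF libraries exceeded every bFGF library. Nrg1, neuregulin, had 14.7 to 65.0 CPM (median 37.5) with aFGF and 8.67 to 19.0 CPM (median 10.3) with bFGF, with a log2 fold change of 1.55 ± 0.265. Epgn, epigen, and Hbegf, heparin-binding EGF, had log2 fold changes of 1.11 ± 0.271 and 0.84 ± 0.21, and for each 7 aFGF libraries lay above all bFGF libraries. These 5 were the called genes of a list of 13 tested ligands and receptors of that family (38.5%), which was drawn up after the data had been seen, and all 5 were called in each of the 18 fits without 1 library. The list's sum was 243 to 675 CPM with aFGF (median 411, highest in 8.4/aFGF replicate 1) and 225 to 282 CPM with bFGF (median 247).

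Of 25 targets of FGF and ERK signalling, 5 rose with aFGF (20%), none fell, and the median log2 fold change was 0.39. Besides Areg and Hbegf they were Egr3 (0.77 ± 0.183), Phlda1 (1.00 ± 0.309) and Myc (0.72 ± 0.227). Phlda1 and Myc were weak calls, each made in 5 of the 18 fits without 1 library, with adjusted p up to 0.0876 and 0.102. The classical feedback inhibitors and targets of FGF receptors, Spry1, Spry2, Spry4, Dusp6, Etv4 and Etv5, did not pass the test (edgeR adjusted p from 0.132 to 0.602). Of 23 immediate early genes, 4 rose and none fell, with a median of 0.49. The orphan nuclear receptor genes Nr4a3 and Nr4a2 led them. Nr4a3 had 12.9 to 87.6 CPM with aFGF (median 48.9) and 4.48 to 23.7 CPM with bFGF (median 11.8), a log2 fold change of 2.04 ± 0.414 (edgeR adjusted p = 0.0077) with 6 aFGF libraries above all bFGF libraries. Nr4a2 had a log2 fold change of 1.45 ± 0.282, and Klf4, of 0.62 ± 0.177, was called in 9 of the 18 fits without 1 library. The sum of the immediate early genes was highest in 8.4/aFGF replicate 1 (7910 CPM) among the aFGF libraries and in 6.4/bFGF replicate 3 (4870 CPM) among the bFGF libraries. Without 8.4/aFGF replicate 2, the calls were 3 of 25 in the first list and 3 of 23 in the second.

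Of the FGF ligands and receptors themselves, 23 were tested, edgeR called 1 in each direction, and the median log2 fold change was near 0 (−0.00465). Sdc4, a cell surface heparan sulphate proteoglycan that takes part in FGF binding, had 192 to 588 CPM with aFGF (median 341) and 109 to 269 CPM with bFGF (median 172), with 6 aFGF libraries above all bFGF libraries (log2 1.11 ± 0.24, edgeR adjusted p = 0.00994). Fgf11, an intracellular member of the family, had 1.25 to 5.21 CPM against 4.94 to 8.00 CPM (log2 −0.75 ± 0.205, edgeR adjusted p = 0.0263), and was not called without 8.4/aFGF replicate 2 or without 7.4/bFGF replicate 2. The wound's own transcripts of the 2 growth factors in the gels were low. Fgf1 had 6.46 to 15.4 CPM with aFGF and 4.94 to 19.6 CPM with bFGF (log2 −0.05 ± 0.295, edgeR adjusted p = 0.938), and Fgf2 had 3.32 to 11.4 CPM against 2.69 to 5.86 CPM (0.59 ± 0.199, edgeR adjusted p = 0.059), which DESeq2 called higher with aFGF (adjusted p = 0.0295). Both genes overlap neighbours, Fgf2 with Nudt6, so their reads may be shared. The receptors were not called, with log2 fold changes of −0.09 ± 0.0788 for Fgfr1, −0.0049 ± 0.278 for Fgfr2, 0.33 ± 0.201 for Fgfr3 and −0.25 ± 0.462 for Fgfr4.

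Matrix metalloproteinases, the enzymes that cut collagen and other matrix proteins, held calls in both directions. Of 20 metalloproteinases and inhibitors 5 fell with aFGF and 2 rose (35%), with a median log2 fold change of −0.19. Mmp12, the macrophage elastase, had 14.6 to 54.5 CPM with aFGF (median 25.6) and 55.4 to 339 CPM with bFGF (median 110). No aFGF library reached the lowest bFGF library, with a log2 fold change of −2.37 ± 0.331 (edgeR adjusted p = 0.00215), and the control wounds had 82.6 to 290 CPM, in the range of bFGF. Mmp13, a collagenase, had 23.9 to 58.4 CPM (median 34) with aFGF and 62.8 to 225 CPM (median 98.5) with bFGF, also without overlap (log2 −1.54 ± 0.237, edgeR adjusted p = 0.00322). Mmp10, a stromelysin of wound-edge keratinocytes, had 5.55 to 12.4 CPM against 12.2 to 60.9 CPM, with 8 aFGF libraries below all bFGF libraries (log2 −1.58 ± 0.273, edgeR adjusted p = 0.00443). All 3 were called in each of the 18 fits without 1 library.

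The other members were less firm or went the other way. Mmp3, another stromelysin, had 298 to 795 CPM with aFGF and 447 to 1360 CPM with bFGF (log2 −0.70 ± 0.19) and was called in 13 of the 18 fits. Mmp11 (−1.07 ± 0.285) was not called without 8.4/aFGF replicate 2 or without 6.4/bFGF replicate 1. Mmp19, by contrast, rose, from 146 to 215 CPM with bFGF (median 176) to 299 to 985 CPM with aFGF (median 503), with no overlap and a log2 fold change of 1.67 ± 0.208, 3.18-fold (edgeR adjusted p = 0.00133). Its neighbour Tmem198b, which overlaps it in the annotation, rose too (0.79 ± 0.119), and the counting's use of strand is not known, so that reads of this pair could not be told apart. Adamts1 (0.63 ± 0.202) was called in 4 of the 18 fits, and the inhibitor gene Timp1 was not called, at 602 to 1840 CPM against 369 to 1880 CPM (0.27 ± 0.283, edgeR adjusted p = 0.56).

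**Figure D3:**
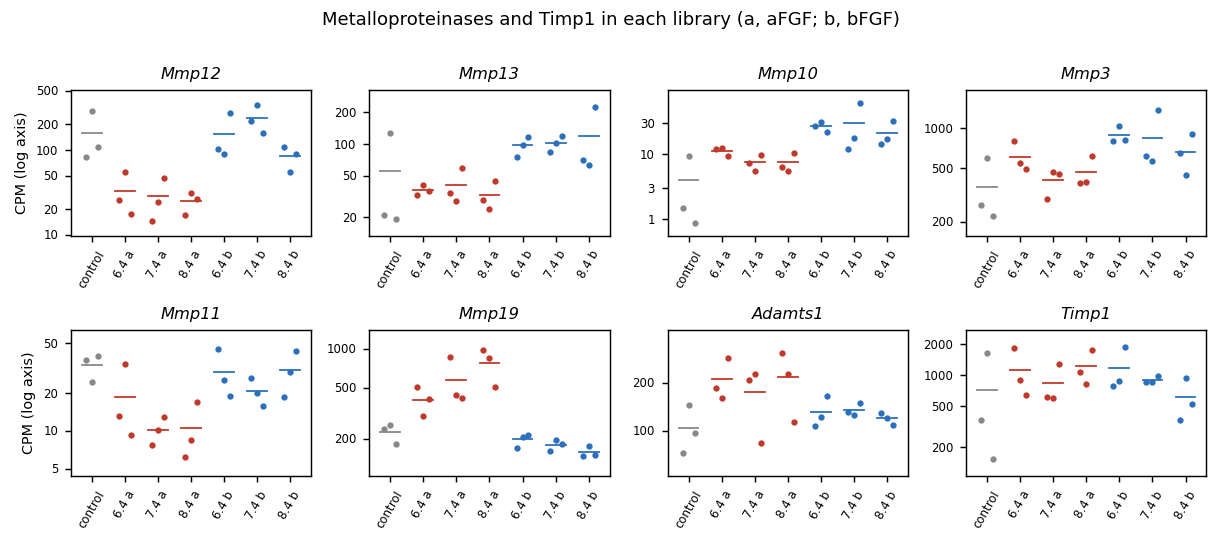
Level of 8 protease and inhibitor genes in CPM (log axis) by group, with control in grey, aFGF in red and bFGF in blue, points for libraries and lines for the mean of 3. For Mmp12 and Mmp13 all 9 aFGF points lie below all 9 bFGF points, for Mmp19 all lie above, and for Timp1 the groups overlap.

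Several genes of signalling, growth and metabolism stood among the 20 higher genes of smallest p. Sphk1, the kinase that makes sphingosine phosphate, had 53.8 to 110 CPM with aFGF (median 78.2) and 27.6 to 52.3 CPM with bFGF (median 32.1), without overlap (log2 1.20 ± 0.161, edgeR adjusted p = 0.00175). Tnfrsf12a, the receptor for the cytokine TWEAK, had 64.3 to 121 CPM against 27.6 to 60.4 CPM (log2 0.97 ± 0.131), also without overlap, though its annotation overlaps that of Hcfc1r1. Clcf1, a cytokine of the interleukin 6 family, had 12.5 to 25.8 CPM against 5.66 to 11.5 CPM (log2 1.14 ± 0.156), and no bFGF library reached the lowest aFGF library. Lmna, which codes for lamin A and C of the nuclear lamina, had 574 to 851 CPM against 317 to 583 CPM with 8 of 9 libraries above (log2 0.88 ± 0.107). Uvrag, a gene of autophagy and endosome transport, had 83.3 to 139 CPM against 44.5 to 71.1 CPM (log2 0.72 ± 0.106), which did not overlap. Avpi1, Rfx2 and Slc25a28, a mitochondrial iron carrier, had log2 fold changes of 0.88 ± 0.119, 0.95 ± 0.147 and 0.60 ± 0.0905. Slc25a28 lay near the fold change threshold and was not called without 6.4/aFGF replicate 3 (0.54), 7.4/aFGF replicate 1 (0.57) or 8.4/aFGF replicate 2 (0.57).

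Odc1, the rate-limiting enzyme of polyamine synthesis and a marker of growth stimulation, rose from 130 to 215 CPM with bFGF (median 156) to 248 to 651 CPM with aFGF (median 412), with no overlap. Odc1 changed by 1.31 ± 0.188 on the log2 scale (edgeR adjusted p = 0.0028), and the control wounds had 113 to 381 CPM. Genes of ribosome biogenesis, the assembly of ribosomes in the nucleolus, were listed after Gnl3, the nucleolar protein nucleostemin, had been seen among the 30 genes, so the list is not independent evidence. All 40 of its genes had a positive log2 fold change, where 49.7% of all tested genes did, 35 of them passed the adjusted p alone (7.19% of all genes), and 10 (25%) were called. The changes were small, with a median of 0.46 and a largest value of 0.78. Gnl3 had 52.4 to 83.6 CPM with aFGF and 41.2 to 53.9 CPM with bFGF (log2 0.60 ± 0.0916). It was called in 15 of the 18 fits without 1 library, with the fold change under the threshold in the others, and it overlaps Glt8d1. The helicase gene Ddx21 had 123 to 200 CPM against 90.2 to 120 CPM without overlap (0.60 ± 0.103), Grwd1 a log2 fold change of 0.78 ± 0.135 and Rrp12 of 0.76 ± 0.141. Summed, the list had 2280 to 3110 CPM with aFGF (median 2750) and 1950 to 2390 CPM with bFGF (median 2060). The median log2 fold change of all genes also went with their level, from −0.136 in the third of 10 classes by level to 0.0991 in the highest class. Cyclic loess normalization takes that trend out, but it was run with limma's test in place of edgeR's, so both changed together. That fit called 3.01% of all genes. Of the 40, it called 7, 32 passed its adjusted p, and 39 had a positive log2 fold change, with a median of 0.43. Of 30 tRNA synthetase and ATF4 target genes, also listed after the data were seen, Slc7a1 (0.61 ± 0.101) and Ppp1r15b (0.61 ± 0.103) rose, none fell, and the median was 0.21.

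Several genes of hyaluronan synthesis and binding rose with aFGF. Hyaluronan is a large sugar polymer of the wound matrix, made at the cell surface by the Has enzymes. Has3, 1 of the 30 genes of smallest p, had 12.8 to 31.7 CPM with aFGF (median 22.8) and 4.73 to 12.0 CPM with bFGF (median 8.49), without overlap (log2 1.43 ± 0.223, edgeR adjusted p = 0.00322). A list of 18 such genes, written after Has3 and others had been seen, held 8 that edgeR called higher (44.4%), none that it called lower, and a median log2 fold change of 0.58. Ugdh, which makes the glucuronic acid precursor, had 178 to 719 CPM (median 475) against 103 to 291 CPM (median 162), a log2 fold change of 1.40 ± 0.273. Gfpt2, which starts the synthesis of the amino sugar precursor, had 103 to 509 CPM (median 405) against 59.9 to 156 CPM (median 98.4), a log2 fold change of 1.72 ± 0.346. Tnfaip6, whose protein links hyaluronan chains to inter-alpha-inhibitor, had 106 to 701 CPM (median 382) against 18.2 to 190 CPM (median 49.8), a log2 fold change of 2.36 ± 0.474 (edgeR adjusted p = 0.00729). In these 3 genes 6 or 7 aFGF libraries lay above all bFGF libraries, and each was called in all 18 fits without 1 library. Ptx3 (1.79 ± 0.463), Has1 (2.50 ± 0.682), Cd44 and Cemip2 were called as well, Has1 not without 6.4/aFGF replicate 3, 7.4/aFGF replicate 1, 8.4/bFGF replicate 2 or 8.4/bFGF replicate 3, and Has2 was not called by edgeR (0.64, adjusted p = 0.0821). DESeq2 called 9 of the 18 higher, Has2 among them, and Cemip lower. The list's sum was 2140 to 5930 CPM with aFGF and 1380 to 2790 CPM with bFGF. Without the 3 libraries that held genes of other tissues, where 2.57% of all genes were called, 5 of the 18 were called. Has1, Has2, Ptx3, Cd44, Cemip2 and Cemip were named after their values had been seen.

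Among the 10 lower genes of smallest p besides Mmp12 and Mmp13, several had low levels. Kcnf1, a subunit of voltage-gated potassium channels, had 0.0622 to 0.861 CPM with aFGF (median 0.302) and 1.03 to 3.51 CPM with bFGF (median 2.36), without overlap (log2 −2.76 ± 0.413, edgeR adjusted p = 0.00322). The lowest aFGF value is under the floor of 3 reads. Cdh10, a cadherin outside these 10, was named for its large gap between the groups. Cdh10 had 0 to 0.378 CPM with aFGF (median 0.167) and 0.559 to 2.37 CPM with bFGF (median 0.851), a log2 fold change of −2.51 ± 0.414, while control wounds had 0.0276 to 0.185 CPM, in the range of aFGF. The C-type lectin gene Clec2e (−2.02 ± 0.315) and Adgb, androglobin (−1.40 ± 0.223), also stayed under 4 CPM in every hydrogel library. At higher levels, Cbx6, a Polycomb protein, had 25.5 to 43.2 CPM against 43.5 to 75.2 CPM (log2 −0.84 ± 0.13) and Samd14 had 5.85 to 12.7 CPM against 13.3 to 22.1 CPM (−0.80 ± 0.122), both without overlap. The linker histone gene H1f0 (−0.63 ± 0.0969), Nectin2 (−0.60 ± 0.0932), an adhesion protein, and Lrch2 (−1.0 ± 0.145) overlapped by 1 or more libraries. Nectin2 was called in 14 of the 18 fits without 1 library, since its fold change lies at the threshold. Slc4a11, a membrane transporter that had 1 of the largest gaps between the groups, went the other way, with 4.05 to 17.2 CPM against 2.05 to 3.05 CPM (1.3 ± 0.246).

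Of 26 fibroblast and collagen genes 23 had a negative log2 fold change, 2 were called lower with aFGF, none higher, and the median was −0.25. Pdgfrb, a receptor for platelet-derived growth factor on fibroblasts and pericytes, had 65.8 to 177 CPM with aFGF (median 85.5) and 172 to 252 CPM with bFGF (median 200), with 8 aFGF libraries below all bFGF libraries (log2 −0.80 ± 0.201, edgeR adjusted p = 0.0195). Col12a1, a collagen that coats fibrils, had 353 to 1020 CPM against 727 to 1360 CPM (−0.63 ± 0.163) and was not called without 6.4/aFGF replicate 3, 8.4/aFGF replicate 2 or 8.4/bFGF replicate 3. Col1a1, the main fibrillar collagen gene, did not pass, at 9030 to 15200 CPM against 9950 to 22100 CPM (−0.34 ± 0.156, edgeR adjusted p = 0.155). Of 20 myofibroblast genes, Lrrc15, a marker of contractile fibroblasts, fell from 96.3 to 320 CPM to 48.3 to 157 CPM (−1.06 ± 0.227), and the cadherin gene Cdh11 fell by 0.75 ± 0.159 on the log2 scale. Both were called in all 18 fits without 1 library, and in each 7 aFGF libraries lay below all bFGF libraries. The stain marker Acta2, smooth muscle actin, was not called (155 to 297 against 159 to 341 CPM, −0.22 ± 0.123, edgeR adjusted p = 0.251).

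Of 30 Wnt pathway ligands, receptors and antagonists, 2 fell with aFGF and 1 rose (10%, against 3.75% of all tested genes). Wnt5a, a Wnt of mesenchymal cells, had 12.2 to 50.3 CPM with aFGF (median 18.2) and 32.1 to 59.3 CPM with bFGF (median 45.2), a log2 fold change of −1.0 ± 0.225 with 7 aFGF libraries below all bFGF libraries. Rspo3, an R-spondin that strengthens Wnt signals, had 1.48 to 3.32 CPM against 2.43 to 7.64 CPM (−1.06 ± 0.216), and Wnt7b, a Wnt of epithelia, had 1.78 to 5.46 CPM against 1.10 to 3.09 CPM (0.80 ± 0.215). The list's median was −0.24, and all 3 were called in each of the 18 fits without 1 library. Without the 3 libraries that held genes of other tissues Wnt7b was not called and Wnt5a, Rspo3 and the receptor gene Fzd2 were called lower, and DESeq2 called 5 of the 30 lower and 1 higher.

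None of 30 endothelial and angiogenic genes was called by edgeR or DESeq2, 5 had an unadjusted p under 0.05, and the median log2 fold change was −0.096. Pecam1, the CD31 of the study's stains, had 186 to 328 CPM with aFGF and 157 to 375 CPM with bFGF (−0.03 ± 0.159, edgeR adjusted p = 0.917). The nearest were Vegfc (−0.44 ± 0.126) and Tek (−0.54 ± 0.16), which passed the adjusted p but not the fold change. Of 16 coagulation and plasminogen genes 2 rose with aFGF (12.5%, against 3.75% of all tested genes) and edgeR called none lower. Thbd, thrombomodulin, had 171 to 994 CPM with aFGF (median 508) and 72.5 to 237 CPM with bFGF (median 137), a log2 fold change of 1.68 ± 0.309 (edgeR adjusted p = 0.00539) with 8 aFGF libraries above all bFGF libraries. Procr, the protein C receptor, had 45.9 to 185 CPM against 40.8 to 75.8 CPM (1.29 ± 0.236). Thbd and Procr are also expressed by keratinocytes and by myeloid cells.

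Some macrophage genes rose with aFGF, while a list of markers of the M2 state had no call. Of 18 genes associated with the M1 state, edgeR called 3 higher with aFGF (16.7%, against 3.75% of all tested genes) and none lower, with a median log2 fold change of 0.51. DESeq2 called 7 higher and 1 lower (44.4%, against 5.04% of all genes). Cd86, a costimulatory molecule, had 30.5 to 86.1 CPM with aFGF (median 48.9) and 15.4 to 38.3 CPM with bFGF (median 23.6), a log2 fold change of 0.89 ± 0.204 (edgeR adjusted p = 0.0125), and was called in all 18 fits without 1 library. Irf5 (0.65 ± 0.137), which overlaps Tnpo3, was not called without 7.4/aFGF replicate 1, and Cd38 (0.64 ± 0.188) was called in 8 of the 18 fits. Of 20 M2 genes none was called by edgeR or DESeq2, 2 had an unadjusted p under 0.05, and the median was 0.08. Of the stain markers, edgeR called neither Mrc1 (CD206) at 485 to 1380 CPM against 395 to 1030 CPM (0.52 ± 0.227, edgeR adjusted p = 0.136) nor Ccr7 at 13.7 to 33.7 CPM against 5.88 to 26.7 CPM (0.63 ± 0.23, edgeR adjusted p = 0.0772), and DESeq2 called Ccr7 (adjusted p = 0.0392). Of 17 general monocyte and macrophage genes, edgeR called 3 (17.6%, against 3.75% of all tested genes). Fcgr1 (0.67 ± 0.196), an antibody receptor, and Cd14 (1.19 ± 0.362), a receptor for bacterial lipopolysaccharide, rose, and the fractalkine receptor gene Cx3cr1 (−1.31 ± 0.392) fell. These 3 were called in 8, 6 and 6 of the 18 fits. Without the 3 libraries with genes of other tissues, 2 of the M1 genes and 0 of the general genes were called by edgeR (4 of the latter at an unadjusted p under 0.05), and with all libraries DESeq2 called 3 of the general genes.

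All 61 interferon response genes tested had a positive log2 fold change, where 49.7% of all tested genes did, with a median of 0.46. By edgeR, 6 of them rose (9.84%, against 3.75% of all tested genes). Slfn8 (0.83 ± 0.222, 30.8 to 157 against 22.7 to 45.3 CPM), Dhx58 (0.71 ± 0.208), Rtp4 (0.72 ± 0.213) and Oas3 (0.69 ± 0.202) had the smallest p. These calls rested on few libraries. The summed level of the list was 2930 to 11200 CPM with aFGF (median 4070) and 2280 to 4330 CPM with bFGF (median 3320), with the highest value in 7.4/aFGF replicate 1. Slfn8 was not called without 8.4/aFGF replicate 2 or 7.4/bFGF replicate 1, the other 3 were called in 7 to 9 of the 18 fits, and without the 3 libraries with genes of other tissues 0 of the 61 were called by edgeR (median 0.36, 58 of 61 positive). With all libraries DESeq2 called 11 of the 61 higher (18%, against 5.04% of all genes) and none lower. After cyclic loess normalization and limma's test 3 were called, all 61 were positive and the median was 0.47. The genes of this family have close copies, and Rtp4 overlaps Masp1. T cell and NK cell genes were summed at 65.9 to 633 CPM with aFGF, again highest in 7.4/aFGF replicate 1, and at 55.1 to 134 CPM with bFGF, and none of 22 was called by edgeR (2 at an unadjusted p under 0.05, 1 called by DESeq2). The part of that library's lymphocyte genes in the interferon response was not tested.

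Of 25 inflammatory interleukins and chemokines, edgeR called 2 higher and 1 lower (12%, against 3.75% of all tested genes). Ccl11, the eosinophil chemokine eotaxin, rose from 22.5 to 54.7 CPM with bFGF to 32.5 to 139 CPM with aFGF (1.14 ± 0.28, edgeR adjusted p = 0.0167). Il1a, an alarm cytokine of keratinocytes, fell from 9.42 to 127 CPM with bFGF to 7.28 to 26.8 CPM with aFGF (−1.78 ± 0.449, edgeR adjusted p = 0.0194), but not without 7.4/bFGF replicate 3 (adjusted p = 0.0562). The alarmin gene Il33 (1.04 ± 0.302) was called in 7 of the 18 fits, and Il6, at 31.3 to 447 against 9.90 to 123 CPM, was called by DESeq2 (adjusted p = 0.0377) and not by edgeR (1.66 ± 0.64, adjusted p = 0.0945). Of the list, DESeq2 called 6 higher and 5 lower. Of 23 neutrophil genes none was called by edgeR or DESeq2 (2 at an unadjusted p under 0.05). Of 7 B cell genes, Mzb1 was called, at 0.330 to 1.6 CPM against 0.137 to 0.708 CPM, in 9 of the 18 fits.

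In a list of 20 genes of oxidative stress and metal binding, written after the data were seen, 5 rose (25%, against 3.75% of all tested genes) and none fell. The metallothionein genes Mt1 and Mt2, which bind zinc and are similar in sequence, had 715 to 1570 CPM and 763 to 1900 CPM with aFGF and 342 to 845 CPM and 371 to 1040 CPM with bFGF (0.98 ± 0.2 and 0.93 ± 0.21). Srxn1, a target of NRF2, had 78.2 to 191 CPM against 47.1 to 102 CPM (0.96 ± 0.185). Gclc (0.59 ± 0.121) was called in 10 of the 18 fits, and Ugdh was the remaining member.

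**Figure D4:**
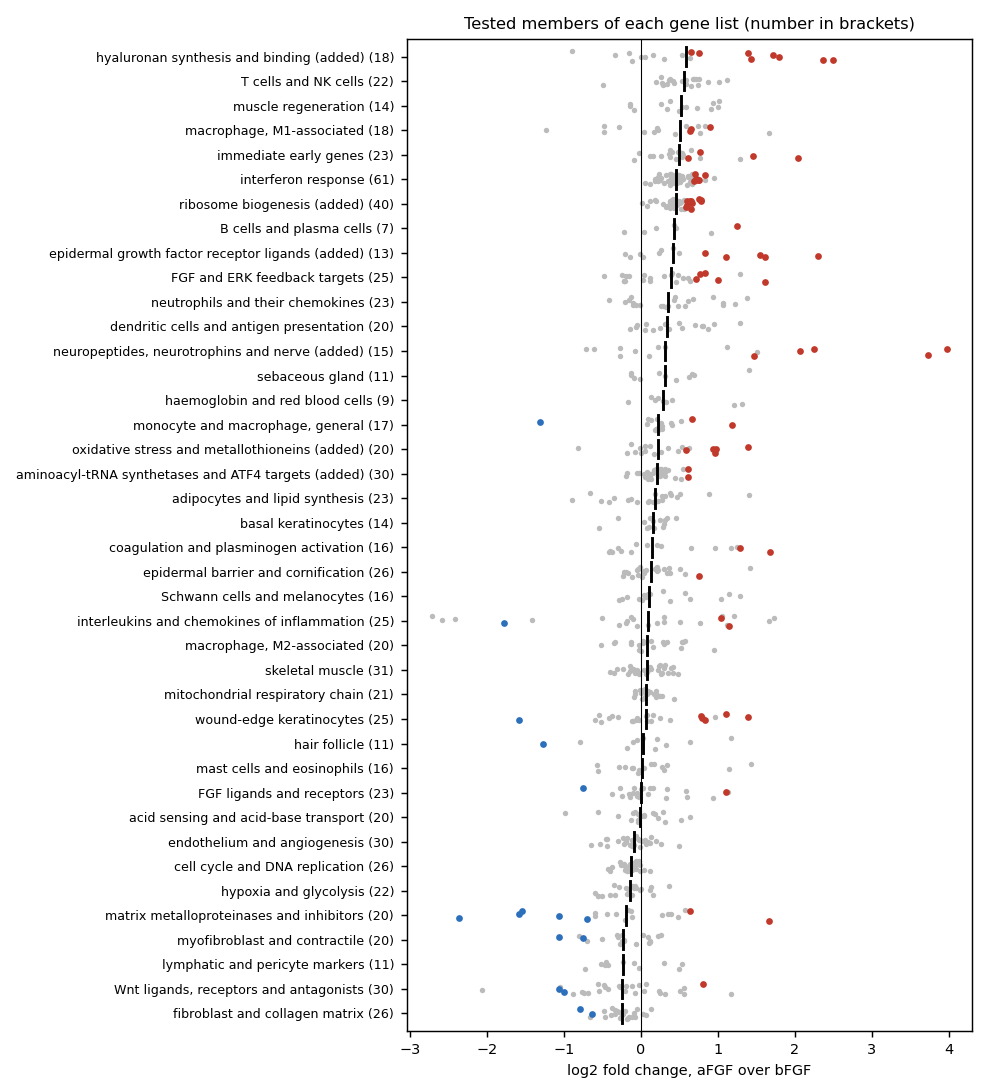
Log2 fold change of aFGF over bFGF (x axis) for the tested members of the gene lists (rows), with called genes in red (higher with aFGF) and blue (lower), other genes in grey and the list's median as a black bar. The lists of liver, of cartilage and bone, and of ovary and oviduct genes are not shown. All genes of ribosome biogenesis and of the interferon response lie to the right of 0, and most genes of collagen, the cell cycle and hypoxia lie to the left.

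The lists that follow held no edgeR call. Of 26 cell cycle genes 24 had a negative log2 fold change, with a median of −0.13, and none was called by edgeR or DESeq2 (6 at an unadjusted p under 0.05). E2f1 (−0.43 ± 0.127) and Bub1 (−0.40 ± 0.127) came nearest, and passed edgeR's adjusted p but not the fold change. Of 22 hypoxia and glycolysis genes 18 were negative (5 at an unadjusted p under 0.05), among them Pdk1 (−0.51 ± 0.148) and the carbonic anhydrase gene Car9 (−0.55 ± 0.164). Pdk1 was called lower after cyclic loess normalization and limma's test. Pdk1 and Car9 passed edgeR's adjusted p but not the fold change. Of 20 genes of acid sensing and acid-base transport, which bear on gels that differ in pH, 6 had an unadjusted p under 0.05 and 1 passed edgeR's adjusted p. None was called by edgeR and 1 was called by DESeq2. The lists of respiratory chain (21 genes), skeletal muscle (31), muscle regeneration (14), mast cell and eosinophil (16) and haemoglobin genes (9) had no call with edgeR or DESeq2, and between 0 and 4 genes each at an unadjusted p under 0.05. Those of adipocytes (23), sebaceous glands (11), Schwann cells and melanocytes (16), lymphatic vessels and pericytes (11) and dendritic cells (20) had no call with edgeR, 2 to 9 genes each at an unadjusted p under 0.05 and 1 to 5 calls with DESeq2. Adipocyte genes summed to 3610 to 13100 CPM with aFGF and 1730 to 26600 CPM with bFGF.

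Of the 8 genes that the study's text names from its sequencing, 1 was called for the growth factor. The study's figure legend describes that sequencing comparison as one between aFGF gels of different pH, not between aFGF and bFGF. The values below therefore do not test the study's own result for these genes. Apold1, an early response gene of endothelial cells, had 11.0 to 66.6 CPM with aFGF and 9.61 to 49.7 CPM with bFGF (0.26 ± 0.351, edgeR adjusted p = 0.675). The log2 fold changes were 0.48 ± 0.314 for F830016B08Rik, 0.66 ± 0.488 for Gm12185, 0.30 ± 0.246 for Tnfsf14, 0.06 ± 0.218 for Il15 and 0.46 ± 0.192 for Rnf213, all uncalled. Oas3 was called (31.2 to 142 against 22.8 to 67.9 CPM, edgeR adjusted p = 0.0346), though not without the 3 libraries with genes of other tissues (adjusted p = 0.118), and Epx had too few reads to be tested.

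Some genes of the liver list were higher with aFGF. Of 20 tested, 7 were called higher with aFGF (35%, against 3.75% of all tested genes), none lower, with a median log2 fold change of 2.61. The summed level of the list overlapped, at 689 to 1600 CPM with aFGF and 645 to 1990 CPM with bFGF, highest in 7.4/bFGF replicate 3. Alb, albumin, had 1.61 to 14.0 CPM in 8 aFGF libraries and 138 CPM in 8.4/aFGF replicate 2, against 0.795 to 3.59 CPM with bFGF (2.89 ± 0.791, edgeR adjusted p = 0.0271). Ttr had 0.0269 to 22.9 CPM (median 0.222) against 0 to 0.102 CPM, and Apoa2, which overlaps Tomm40l, had 0.483 to 19.1 CPM against 0.329 to 0.665 CPM. Apob was at 0 in all bFGF libraries and, against a floor of 3 reads over that group, at least 108-fold higher with aFGF. Without 8.4/aFGF replicate 2 the calls were Alb, Ttr and Apoa2, not Apob, and the list's median was 1.44. After cyclic loess normalization and limma's test 1 of the 20 was called. These plasma proteins are made mainly by the liver, and the source of their reads in skin libraries was not tested. Cartilage genes (16 tested) and ovary genes (13 tested), which mark the other libraries that stood apart, had no call with edgeR or DESeq2, with 2 at an unadjusted p under 0.05 in each.

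The size of the difference was compared across the pH values. Of the called genes, 585 of 589 had the same sign at all 3 pH values, which their choice on the mean over pH favours. The median log2 fold change of the 279 higher genes was 0.65 at pH 6.4, 1.00 at pH 7.4 and 1.09 at pH 8.4, and that of the 310 lower genes was −0.65, −0.87 and −0.96. Mmp19 had a log2 fold change of 1.01 at pH 6.4, 1.69 at pH 7.4 and 2.31 at pH 8.4. Has3 went the other way, with 1.75, 1.39 and 1.16, and Aqp3 was highest at pH 7.4, with 1.33, 2.12 and 1.44. None of these orders was a call. The interaction of growth factor and pH had 0 calls with edgeR (lowest adjusted p = 0.694, with an unadjusted p under 0.05 in 1104 genes) and 14 with DESeq2's likelihood ratio test.

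The wounds at pH 6.4 allowed a check on libraries that a fit had not used. Fits without pH 7.4 or pH 8.4 gave 0 and 1 calls, so they left too few genes for such a check. At these left-out pH values, 69% and 68.8% of all genes had the direction of the fit. When the 12 libraries at pH 7.4 and 8.4 were fitted alone, 725 genes were called, and 613 of them (84.6%) had the same direction at pH 6.4, where 60.9% of all genes did. Their median log2 fold change in the called direction was 0.35 at pH 6.4 and 0.84 in the fit. The second value comes from the libraries that chose these genes, so only the first is independent of the choice.

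**Figure D5:**
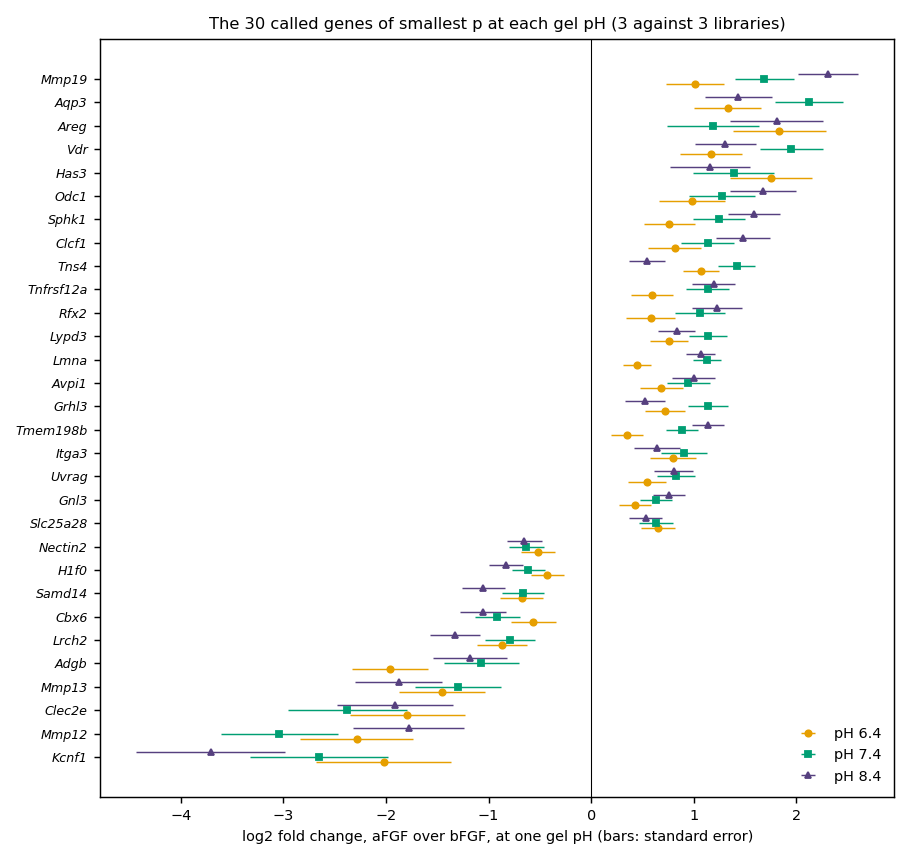
Log2 fold change of aFGF over bFGF (x axis, points with bars of 1 SE) at pH 6.4, 7.4 and 8.4 for the 30 called genes of smallest p (rows). All 30 have the same sign at each pH, and the median in the called direction is 0.78 at pH 6.4, 1.13 at pH 7.4 and 1.17 at pH 8.4.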

How the data were processed

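RNA was extracted with TRIzol and libraries were made with a stranded TruSeq mRNA kit. The authors deposited, for each of the 21 libraries, raw counts of reads for 18806 genes, without normalization, and FPKM values, which are the same counts per gene length and library total. The submitters' processing notes name the build GRCm39. The aligner, the counting tool and its use of strand are not given in the sources used here. Gene names were matched to a RefSeq table of GRCm38.p6 (18662 symbols, 99.2%), used for names and overlaps only.

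The counts of the 18 hydrogel libraries were fitted in R 4.3.3 with edgeR 4.0.16 (TMM, default filter by group, quasi-likelihood test, growth factor and gel pH as additive factors), and levels are CPM (reads per 1000000 of the library's TMM-scaled total) over all 21 libraries. The interaction was tested in a second model. Each SE was taken as the size of the log2 fold change over the square root of the test's F statistic. Alternatives were DESeq2 1.42.0, other normalizations and filters, limma 3.58.1 on the log2 of FPKM, to which 1 or 0.1 was added, for genes whose FPKM averaged 1 or more, a replicate block, and leaving out libraries or a pH. The cyclic loess alternative was a fit of the counts by limma's voom, so its test differed from edgeR's as well as its normalization. On simulated counts of 15655 genes for this comparison, 86.6% of genes with a true log2 change of 1 were recovered, 91.3% at 2 and 96.9% at 3, with 3 false calls. The simulation drew each gene independently around 1 mean profile, so it held no differences in tissue between whole libraries. It had no change smaller than 1, while the called genes had medians of 0.89 and −0.81, so these rates do not cover such genes.

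The comparison, the rule for named genes and 37 gene lists were chosen with earlier results of these data known, and 6 lists and the cyclic loess alternative were added after the data of this comparison had been seen. The rule named the 30 called genes of smallest p, the study's genes and those of its stains, FGF1, FGF2 and their receptors, up to 4 called members of each list (or the 2 of smallest p) and the 10 genes of largest gap between the groups. Other genes were chosen after their values were seen. Some items are not reported here and were left out of the lists and their counts. The statistics section of the study names no test for the sequencing. No nucleotide or protein sequence was used here.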

Additional observations from a re-analysis of the deposited data

Results flagged for a closer look

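In 286 sets of 9 libraries of 1 growth factor, 1 for each named gene and growth factor, the highest or lowest library was compared with the rest on the log2 scale by Dixon's test, which chance passes in about 1 of 20 sets. It picked out 19. The library 7.4/bFGF replicate 3 was lowest for the keratinocyte genes Lypd3 (43.2 CPM, nearest 58.1) and Pkp1 (86.5, nearest 143 CPM), for Fgfr3 (6.72, nearest 11.4 CPM) and for the sebaceous gene Elovl3 (8.66, nearest 19.7 CPM). The library 7.4/aFGF replicate 1 was highest for the lymphocyte genes Il7r (49.9, nearest 21.5 CPM) and Cd2 (29.3, nearest 5.94 CPM), for H2-D1 of antigen presentation (3930, nearest 2790 CPM) and for Slc4a11 (17.2, nearest 6.7 CPM), and lowest for Fgf11 (1.25, nearest 2.8 CPM) and Cdh10 (0, nearest 0.11 CPM). In 8.4/aFGF replicate 2, Alb (138, nearest 14 CPM) and Apoa2 (19.1, nearest 2.33 CPM) stood high. In 8.4/bFGF replicate 2, the ovary genes Hsd17b1 (17.2, nearest 0.383 CPM) and Inha (160, nearest 3.94 CPM) stood high and Uvrag (44.5, nearest 56.2 CPM) stood low. The cartilage gene Hapln1 was high in 7.4/aFGF replicate 3 (11, nearest 0.324 CPM) and Ttr in 7.4/bFGF replicate 2 (0.102, nearest 0.0282 CPM). Mmp13 was highest in 8.4/bFGF replicate 3 (225, nearest 118 CPM), away from the aFGF libraries, and Tek was lowest in 6.4/bFGF replicate 3 (19.5, nearest 33.9 CPM).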

How the results depend on the processing

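The 589 calls became 825 with DESeq2 (580 shared), 591 with RLE normalization, 570 with no filter, 548 with at least 10 counts in every library, 473 after cyclic loess normalization and limma's test (408 shared) and 406 without the 3 libraries with genes of other tissues (347 shared). They fell outside 1.5 times the count with limma on log2(FPKM + 1), 259, on the same without a filter, 231, and with no fold change threshold, 2030. The same held without pH 7.4 (0), without pH 8.4 (1) and without 8.4/aFGF replicate 2 (378). Without pH 6.4, also a fit of 12 libraries, 725 genes were called, and the cause of these differences was not tested. Leaving out 1 library gave 378 to 800. With limma on log2(FPKM + 0.1), 404 genes were called, 37.9% of them higher with aFGF, against 47.4% in the fit of counts. No called gene changed sign in any of these settings. The interaction had 0 calls in the edgeR settings run for it, which were RLE normalization, no filter, at least 10 counts, robust dispersion, 21 libraries, the replicate block, without the 3 libraries and without each single library, and 14 and 13 with DESeq2, with and without its default filters. The cause of that difference was not tested.

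Replicate numbers did not pair the libraries, since the 45 pairs with the same number correlated at −0.713 to 0.468 (median −0.024), 14 of them over 0.1, and 2 of 18 libraries were closest to their own number. With the replicate block 488 genes were called (475 shared), and the interaction had 0.

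For 47 single genes, 1265 of 1403 alternative values kept direction and call, 91 lost the call, 8 gained it and 39, all of genes that were not called, changed sign. An uncalled gene that stayed uncalled counts as kept. Of the 30 called genes of smallest p, 0 were called in every alternative. Without pH 7.4, 0 of these 30 were called, and without pH 8.4, 1 was. Without pH 6.4 the log2 fold change of Apold1 was −0.0074. Without pH 7.4 it was −0.023 for F830016B08Rik, −0.12 for Gm12185, −0.048 for Il15, 0.20 for Fgf1 and 0.074 for Fgfr2. Without pH 8.4 it was −0.11 for Tnfsf14, −0.28 for Il15, 0.0025 for Pecam1, 0.18 for Fgf1, 0.15 for Fgfr2 and 0.0027 for Fgfr4. Without the 3 libraries it was −0.049 for Il15, 0.055 for Fgf1 and 0.21 for Fgfr2, after cyclic loess 0.050 for Fgf1 and 0.14 for Fgfr2, and with the muscle covariate 0.061 for Fgfr2. Without 1 library it ranged from −0.055 to 0.63 for Apold1, −0.045 to 0.22 for Il15, −0.10 to 0.049 for Pecam1, −0.22 to 0.13 for Fgf1 and −0.18 to 0.23 for Fgfr2.

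At 34362558 to 37817833 counts a library, genes under about 0.08 CPM could not be compared.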

Other observations

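Some genes of sensory nerve peptides were higher with aFGF. They were listed after some of them had been seen among the called genes, so that their count is a description. Of 15 tested genes of neuropeptides, neurotrophins and nerve fibres, 5 were called higher (33.3%, against 3.75% of all tested genes), none lower, and the median log2 fold change was 0.32. Tac1, the precursor of substance P, had 0.0784 to 3.26 CPM with aFGF (median 1.08) and 0 to 0.364 CPM with bFGF (median 0.0773), with 7 aFGF libraries above all bFGF libraries (3.73 ± 0.747, edgeR adjusted p = 0.00729), and Calcb, a calcitonin gene-related peptide, 0.349 to 1.79 CPM against 0 to 0.599 CPM (2.07 ± 0.511). The neurofilament gene Nefl had 0.188 to 3.16 CPM against 0.118 to 0.706 CPM (2.24 ± 0.594). All 3 were called in each of the 18 fits without 1 library, while Pyy was called in 13 of them and Calca in 4. The peptide genes lie near the floor of 3 reads, and in the control wounds Tac1 had 0.165 to 2.49 CPM, in the range of aFGF. Other nerve genes were not called, among them Uchl1 (0.11), Prph (−0.61) and Nefm (1.51).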
